A study of Drosophila melanogaster with 2 samples.

Results

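Of the 8399 peaks of CG10631-eGFP in *Drosophila melanogaster* white prepupae that passed the authors' comparison of replicates by the irreproducible discovery rate (IDR), 1623 had their summit at the promoter of a single gene (19.3%, Wilson 95% interval 18.5 to 20.2%, counting error only). A peak was placed in this class when its summit lay within 500 bp of a start site of a protein-coding gene, and no protein-coding start site of the opposite strand lay within 500 bp of the summit. Among the remaining peaks, 748 had start sites of both strands within 500 bp and are called divergent promoter peaks here, and 6028 had no protein-coding start site in that window. A summit was called first when the 5′-most start site of the gene lay within 500 bp of it, and alternative when only later start sites of the gene did.

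The chromatin came from whole animals of a transgenic line that stably expresses CG10631 with a C-terminal GFP, collected at the white prepupa stage, sheared by sonication and precipitated with an antibody against GFP. The labels name a single group with 2 biological replicates, numbered 2 and 3, and give no sex and no age beyond the stage. Signals from all tissues of the animal are mixed in such samples, and they report the tagged protein expressed from the inserted construct. Chromatin from untagged animals and input DNA were not analysed here, so signals have no measured background beside them, and no second condition was compared. All values below describe these lists, with the value of each replicate beside them, and no p-value is attached to any of them. Read depth is unknown. The signal of a peak is the authors' own value in their peak caller's units.

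A promoter is the DNA around the start of transcription, where general factors and sequence-specific proteins meet RNA polymerase II. Compact genomes such as that of the fly often place the start sites of neighbouring genes back to back, so that a protein bound between them cannot be assigned to either gene, whereas at a promoter with start sites on 1 strand the assignment is simpler. Many fly genes also have several promoters, and their alternative start sites often lie inside introns of longer transcripts and can serve other tissues or stages. Fly promoters of broadly expressed genes often carry the DREF element or the Ohler motifs, whereas regulated promoters more often carry a TATA box or sites of the GAGA factor.

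The DNA under the peaks is shown first by copies of the 8-letter word CACAGTGG, which led the ranking of words described further on. The copies below, with the word in capitals and 16 bases on each side, come from the strongest peaks in which the copy lies outside annotated exons and include peaks at larp, Rtnl1, spi, Ptpmeg2, RapGAP1 and by. Their dm6 positions are chr3R:28326670-28326709 (minus strand) at larp, which encodes a La-related RNA-binding protein, and chr2L:4997729-4997768 (minus strand) at Rtnl1, a reticulon gene of the endoplasmic reticulum. The copy at spi, the gene of the EGF receptor ligand Spitz, lies at chr2L:19575654-19575693 (plus strand), and that at the protein tyrosine phosphatase gene Ptpmeg2 at chrX:9651008-9651047 (minus strand). Those at RapGAP1, the gene of a GTPase-activating protein, and at by, which encodes the fly tensin, lie at chr2L:7530858-7530897 and chr3R:9533508-9533547 (both minus strand). All sequences are read 5′ to 3′ on the strand named, from the RefSeq copy of the dm6 assembly.
larp: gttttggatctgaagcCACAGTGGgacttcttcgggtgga
Rtnl1: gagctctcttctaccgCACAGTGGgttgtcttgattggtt
spi: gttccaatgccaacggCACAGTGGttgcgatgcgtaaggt
Ptpmeg2: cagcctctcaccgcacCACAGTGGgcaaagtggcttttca
RapGAP1: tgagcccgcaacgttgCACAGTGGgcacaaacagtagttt
by: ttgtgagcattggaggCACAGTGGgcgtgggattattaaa

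In these copies the letter after the word was G in all but the spi copy, and the letter before it was G in those of Rtnl1, spi, RapGAP1 and by. The centre of the copy lay 76.5 bp from the summit at larp, 99.5 bp at Rtnl1, 98.5 bp at spi, 47.5 bp at Ptpmeg2, 139.5 bp at RapGAP1 and 197.5 bp at by, so none of these copies was centred on its summit.

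Whole windows reaching 100 bases to each side of the summit show the AT-rich sequence in which the summits lay, and were chosen from the strongest peaks whose window holds no annotated exon. The window at CG18549, a first start site peak, covers chr3R:12449073-12449273 (plus strand), from 223 to 23 bp upstream of the start site, has a GC content of 31.8%, and holds GAGAG and TATAAA, both in capitals. The window at larp, an alternative start site peak, covers chr3R:28326513-28326713 (minus strand), from 449 to 249 bp upstream, with a GC content of 37.3% and the word CACAGTGG in capitals. The window at CG11151 is that of the strongest such peak with the DREF element TATCGATA, at chrX:13739444-13739644 (plus strand), from 300 to 100 bp upstream of the first start site. The window at tin, the gene of the heart homeobox protein Tinman, is that of the strongest such peak with the Ohler motif 7 core CATCNCTA, at chr3R:21378643-21378843 (plus strand), and holds the core once on each strand, both in capitals. Only the words named for a window are in capitals. The windows of CG11151 and tin also hold TATAAA, and that of CG11151 holds CCACTGTG, which is CACAGTGG on the other strand.
CG18549: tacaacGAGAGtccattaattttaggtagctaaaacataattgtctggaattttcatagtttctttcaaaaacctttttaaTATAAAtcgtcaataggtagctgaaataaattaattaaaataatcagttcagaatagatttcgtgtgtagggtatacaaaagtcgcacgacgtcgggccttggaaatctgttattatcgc
larp: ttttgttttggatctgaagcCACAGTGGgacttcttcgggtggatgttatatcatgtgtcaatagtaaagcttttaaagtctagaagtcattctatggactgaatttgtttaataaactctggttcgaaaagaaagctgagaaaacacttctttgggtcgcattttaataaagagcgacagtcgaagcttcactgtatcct
CG11151: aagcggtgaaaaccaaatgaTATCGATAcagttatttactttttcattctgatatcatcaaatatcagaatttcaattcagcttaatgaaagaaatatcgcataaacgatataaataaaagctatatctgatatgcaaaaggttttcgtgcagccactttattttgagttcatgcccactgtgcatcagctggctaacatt
tin: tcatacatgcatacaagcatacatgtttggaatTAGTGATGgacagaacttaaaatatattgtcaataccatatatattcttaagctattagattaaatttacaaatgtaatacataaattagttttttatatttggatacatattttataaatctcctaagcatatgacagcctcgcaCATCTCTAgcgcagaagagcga

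The 1623 peaks had 1354 different nearest genes, and 1390 of the 13945 protein-coding genes on the 6 arms used had such a peak within 500 bp of a start site (9.97%). At 43 peaks a second gene of the same strand also had a start site in the window. Most entries had a width of 440 bp (77.1%), and 226 overlapped another peak of the class, so that merging left 1510 separate regions. The rule's edge fell inside a continuous distribution. In the last 20 bp inside the limit there were 39 peaks, with a median merged signal of 182, and in the first 20 bp outside it 30 peaks with a median of 224. An opposite-strand start site lay in the first 20 bp outside the limit at 11 peaks, and outside it but within 1000 bp at 171 (10.5%). A start site of a noncoding gene lay within 500 bp of 104 summits (6.41%).

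First start sites accounted for 1071 peaks (66.0%, 63.6 to 68.3%) and alternative start sites for 552 (34.0%, 31.7 to 36.4%). When the 8399 strongest regions of a single replicate took the place of the IDR list, alternative start sites made up 33.3% in replicate 2 and 34.6% in replicate 3. Many genes have no alternative start site: among the 1000 peaks whose gene has several, 552 were alternative (55.2%). To count promoters rather than peaks, start sites of a gene within 500 bp downstream of a leading one were joined into 1 promoter unit. Units with no opposite-strand start site nearby had a peak in 1018 of 10140 cases for first units (10%) and 524 of 3148 for alternative units (16.6%). Alternative units occur by definition only at genes with several units, and within those genes 291 of 1649 first units had a peak (17.6%, Wilson 95% interval 15.9 to 19.6%), beside the 16.6% of alternative units (15.4 to 18.0%). By the number of units per gene, the bound share of units was 8.56% at genes with 1 unit, 15.3% with 2, 18.7% with 3 and 18.9% with 4 or more. The share of genes with at least 1 peak was 6.27%, 23.1%, 38.6% and 57.0% over the same classes.

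Of the 2171 genes with several promoter units, 652 had a peak of the class. By the rule for summits, peaks lay at the first start site only in 222, at alternative start sites only in 356 and at both in 74. An alternative start site can by this rule belong to the first unit, so these are not counts by unit. The 2171 genes hold 3148 alternative and 1649 first units with no opposite-strand start site nearby. Taking each peak's nearest gene, 71 genes had peaks at both kinds of start site, and the alternative peak was the stronger in 42 of these in the merged list (59.2%, 47.5 to 69.8%), in 42 of 71 in replicate 2 and in 41 of 69 in replicate 3. The intervals include an even split.

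In most peaks, 84.2%, the summit was upstream of the start site nearest to it (82.3 to 85.9%). The share was 87.1% for first and 78.4% for alternative start sites. The median distance was -186 bp, negative values being upstream, with quartiles at -306.5 and -87 bp. The most populated 50-bp interval was that from -200 to -150 bp, with 206 summits. There were 68 summits in the last 50 bp before the start site and 39 in the first 50 bp after it. Alternative start sites had their summits farther upstream, with a median of -221 bp against -175 bp at first ones.

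**Figure D1:**
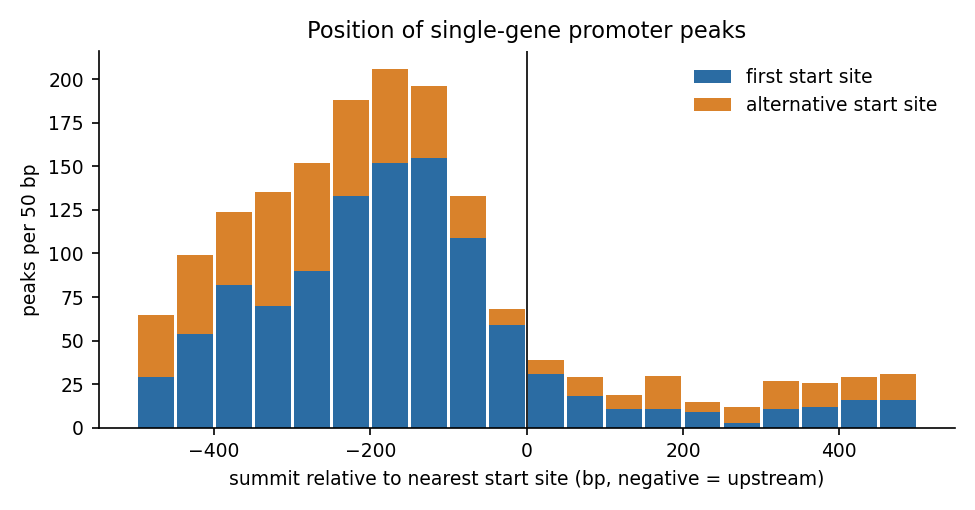
Number of single-gene promoter peaks by the distance of the summit from the nearest start site, in 50-bp intervals (x axis in bp, negative upstream), stacked by first and alternative start sites. The highest bar, at -200 to -150 bp, holds 152 first and 54 alternative summits.

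First and alternative summits lay in different surroundings. At first start sites 70.7% of summits were outside protein-coding genes and 15.9% in exonic sequence that is not coding. At alternative start sites 85.9% were in an intron of the nearest gene and 13.9% in exonic sequence that is not coding. Coding exons held 8 of the first and 1 of the alternative summits. For first summits outside genes, the upstream neighbouring gene ran in the same direction at 468 of 757 (61.8%), where the gap between the genes had a median of 866 bp, and in the opposite direction at the others, where it had a median of 2654 bp. The rule removed divergent neighbours with close start sites, so this difference in gap follows in part from it. By arm, the share of single-strand promoter units with a peak was 14.9% on X (13.5 to 16.4%), 11.4% on 2L and 3L, 10.5% on 2R and 3R, and 13 of 104 units on chromosome 4.

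The peaks had a median merged signal of 205, with quartiles at 137 and 374 and a range of 100.1 to 3942. The median was 110 in replicate 2 and 119 in replicate 3. Divergent promoter peaks had a median of 283 (154 and 148 in the replicates), and peaks away from protein-coding start sites one of 180 (93.8 and 97.3). Single-gene promoter peaks made up 28.5% of the 1000 strongest IDR peaks (25.8 to 31.4%), 18.5% of the following ranks to 3000, 18.3% of those to 6000 and 17.5% of those to 8399.

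Signal differed with distance more than with the kind of start site. First peaks had a median of 203 and alternative peaks of 212, with 107 and 115 in replicate 2 and 114 and 123 in replicate 3. Summits over 100 and up to 250 bp upstream had the highest median of the 4 distance classes, at 241 over 590 peaks (124 in replicate 2 and 136 in replicate 3). The 575 summits farther upstream, up to 500 bp, had a median of 205 (112 and 123) and the 256 downstream summits one of 192 (99.95 and 112). The 202 summits 0 to 100 bp upstream, a class that includes a summit on the start site itself, had the lowest, at 172 (85.2 and 90.7). Of the class with the highest median, called the 100 to 250 bp class below, 22.5% ranked among the 1000 strongest IDR peaks, and of the 0 to 100 bp class 8.42%. The interval within each class was wide, so a peak's signal could not be read from its position: in the 0 to 100 bp class the quartiles were 125 and 256 and the maximum was the strongest peak of the whole list. Within the 100 to 250 bp class, 150 alternative peaks had a median of 274 and 440 first peaks one of 228. The replicates gave 138 against 119 and 150 against 129.

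The replicates ordered the peaks alike. Over the 1600 peaks with an overlapping region in both replicate lists, Spearman's rho of the replicate signals was 0.920, a description across peaks that share libraries. Signals differed by over 1.5-fold at 144 of them (9%) after the median ratio was removed. The list of replicate 2 held no overlapping region at 9 peaks and that of replicate 3 none at 14. Both replicates' 8399 strongest regions overlapped 87.6% of the peaks, against 86.8% of the other IDR peaks. The share was 80.2% for summits 0 to 100 bp upstream and 89.8% for downstream ones. The IDR list was built from these replicates, so both this overlap and the rank correlation follow in part from how it was chosen. Overlapping peaks can share a replicate region, whose value then enters the correlation more than once.

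**Figure D2:**
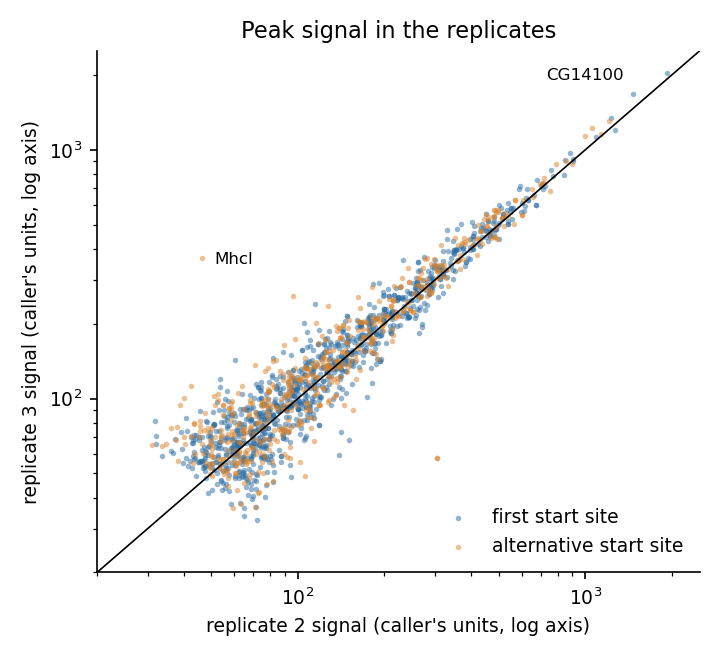
Signal of each single-gene promoter peak in replicate 2 (x axis) and replicate 3 (y axis), both in the caller's units on log axes, for the 1600 peaks with a region in both lists. The line marks equal signals. CG14100 stands at the top right, and the Mhcl peak, at 46.3 and 368, lies far above the line.

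The strongest first start site peaks lay close to the start site and were strong in both replicates. At CG14100 (chr3L:19590396-19590835) the summit was 91 bp upstream and the signal was 1928 in replicate 2 and 2028 in replicate 3 (1978 ± 70.8, SD, n = 2), with 3942 in the merged list. At Ugalt, which encodes a UDP-galactose transporter (chrX:2703691-2704091), the summit was 41 bp upstream, with 1466 and 1668 in the replicates. The peak at the small heat shock protein gene Hsp27 (chr3L:9383687-9384116) had its summit 145 bp upstream and signals of 1227 and 1339. The mitochondrial ribosomal protein gene mRpL41 (chr2R:15217569-15217956, 135 bp upstream) had 1271 and 1197, and CG18549 (123 bp upstream) had 1093 and 1127. These genes have 1 promoter unit each. Their summits lay outside protein-coding genes, none of their peaks held a copy of CACAGTGG within 220 bp of the summit, and the replicate order was not the same at all of them.

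The strongest alternative start site peaks lay at genes with 2 to 5 promoter units. The larp peak (chr3R:28326383-28326804) was 349 bp upstream of an alternative start site, in an intron, with 1205 in replicate 2 and 1306 in replicate 3 (1256 ± 71.5, SD, n = 2) and 2505 in the merged list. The peak at PNPase, which encodes the exoribonuclease polynucleotide phosphorylase (chr3R:31404482-31404850), lay 83 bp downstream of its nearest start site in noncoding exonic sequence, with 1132 and 1157. At ph-p, a gene of the Polycomb group protein Polyhomeotic (chrX:2137165-2137566), the summit was 454 bp upstream, with 1052 and 1228. Fkbp14, a gene of a prolyl isomerase of the endoplasmic reticulum (chr2R:21497157-21497536), had 1000.99 and 1139 at 126 bp upstream. The peak at gish, which encodes a casein kinase 1 (chr3R:16280527-16280923), had 901 and 872 at 159 bp upstream. All but the PNPase summit lay in an intron of their own gene.

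Strong peaks of the far upstream class also lay at papi, the gene of a Tudor domain protein of the piRNA pathway (308 bp upstream of an alternative start site, 711 and 732 in the replicates), and at Rtnl1 (268 bp, 698 and 729). A peak 258 bp upstream of the shared first start site of CG46429 and Sesn, the latter encoding the stress-responsive TOR inhibitor Sestrin, had 678 and 758 and could not be assigned to 1 of the pair. In the 100 to 250 bp class CG13921 followed Hsp27, mRpL41, CG18549 and Fkbp14, with 882 and 972. Close to the start site, eIF6, the gene of a factor of the large ribosomal subunit (98 bp upstream), had 759 and 830. CG11857 (60 bp) had 517 and 550, and TRAM, a gene of the translocon of the endoplasmic reticulum (65 bp), 482 and 539. From CG14100 to TRAM the merged signal of the 5 strongest peaks in this closest class fell from 3942 to 1028, whereas the 5 strongest of the 100 to 250 bp class spanned 2560 to 1832.

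Downstream summits were led by the PNPase peak. They were followed by GstE13, a glutathione S-transferase gene (76 bp downstream of the start site, 909 and 904 in the replicates), CG9399 (54 bp, 674 and 600) and CG10413 (113 bp, 562 and 582). The septin gene pnut (108 bp, 550 and 584) completed the 5. All of these 5 summits lay in exonic sequence that is not coding.

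A few genes had several peaks. One peak was found at 1134 of the nearest genes, 2 at 187, 3 at 22 and 4 or more at 11. The cAMP phosphodiesterase gene dnc, with 8 promoter units, had 6 peaks, all at alternative start sites, with merged signals from 118 to 1060. Some of these peaks shared their nearest start site, as did peaks at Ptpmeg2, shn and Moe, so peaks outnumber the start sites there. The strongest dnc peak (chrX:3294830-3295147) had 521 in replicate 2 and 536 in replicate 3. A pair of overlapping dnc entries at chrX:3255550-3255872 and chrX:3255728-3256167, with merged signals of 905 and 211, shared a single region in each replicate, with 434 and 469. Ptpmeg2 had 5 peaks, all alternative, from 197 to 1084. Their signals in replicates 2 and 3 were 480 and 574, 445 and 526, 371 and 424, 188 and 209, and 105 and 49.0.

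The other genes of this kind had weaker or fewer peaks. The 5 peaks at shn, a zinc finger gene of Dpp signalling, ranged from 118 to 278 in the merged list, and a pair of them shared 1 replicate region. Moe, the gene of Moesin, which links actin to the membrane, had 5 peaks from 104 to 241, of which 1 was at the first start site (53.7 and 112 in the replicates). Rtnl1 had 4 peaks from 315 to 1421, all alternative.

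Both kinds of start site carried strong peaks at a few genes. At ph-p the first start site peak, 399 bp downstream, had 609 and 566 in the replicates, below the 1052 and 1228 of the alternative peak. At brwl the order was the opposite, with 711 and 696 at the first start site and 406 and 414 at the alternative one. CHES-1-like, a forkhead family gene, had 267 and 258 at the first and 290 and 266 at the alternative start site, a difference smaller than the SD of 17.1 at the alternative peak. At chas the alternative peak was the stronger (315.5 and 412 against 252 and 236), and at CG2258 the first one was (272 and 299 against 215 and 225).

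The largest differences between replicates were found at alternative start sites. The peak at Mhcl, a myosin heavy chain-like gene, had 46.3 in replicate 2 and 368 in replicate 3. At the phosphoglycerate kinase gene Pgk the order was reversed, with 305 and 57.9, and both Pgk entries rest on the same replicate regions. The peak at puc, which encodes a phosphatase of JNK signalling, had 96.3 and 258, and that at Traf4 had 42.4 and 113. The merged signals were 653 at Mhcl, 575 and 144 at the Pgk entries, 355 at puc and 151 at Traf4. A replicate value is that of the strongest overlapping region, which need not have the same summit as the peak. At none of these 5 entries should the merged signal be taken as a level both replicates share. The values of alternative peaks as a whole did not lean to a replicate: the median log2 ratio of replicate 2 to replicate 3, after the median over all peaks was removed, was -0.03 at alternative and 0.01 at first start sites.

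Of 22 gene lists, those of ecdysone response, nuclear receptors, circadian clock, Hippo signalling and heat shock had larger shares of genes with a single-gene promoter peak than the 9.97% of all protein-coding genes, with Wilson intervals above that value. The share of a list was not tested, and an interval above that value is not a test. The lists were chosen with earlier results of these data known, and the intervals make no allowance for the number of lists. Lists also differ in how many promoters their genes have. Genes with several promoter units had peaks more often, at 652 of 2171 against 738 of the 11774 genes with 1 unit. The number of listed genes with several units is therefore given for these lists.

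Genes that regulate the response to ecdysone, the steroid hormone of metamorphosis, had a peak at 8 of 19 genes (42.1%, 23.1 to 63.7%), and 15 of the 19 have several units. They were Sox14, Eip75B, Hr78, EcR, Eip74EF, Eip93F, usp and Eip63E. At Sox14, a transcription factor gene induced by ecdysone, the summit was 250 bp upstream of the first start site, with 844 in replicate 2 and 789 in replicate 3 and a copy of CACAGTGG. The nuclear receptor gene Eip75B had 210 and 236 at an alternative start site, and the receptor gene Hr78 had 177 and 240 at its first one. In the merged list these 3 peaks stood at 1617, 448 and 408, above the upper quartile of all peaks. The median of the strongest merged signal over the 8 genes was 170, against 222 over all 1390 genes with a peak. Nuclear receptor genes, which share several members with that list, had 7 of 21 (33.3%, 13 of the 21 with several units), led by Hnf4 with 308 and 305 at an alternative start site.

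Circadian clock genes had 6 of 12 (50%, 25.4 to 74.6%), of which 5 have their strongest peak at an alternative start site, and 5 of the 12 have several units. The kinase gene sgg had 379 and 442, the photoreceptor gene cry 308 and 257, and Pdp1, which encodes an activator of the clock, 97.1 and 113. The Hippo pathway, which limits organ growth, had 6 of 14 (42.9%, 21.4 to 67.4%), and 2 of the 14 have several units. The gene ft, for the cadherin Fat at the top of the pathway, had 396 and 436, Mer 142 and 148, and the kinase gene hpo 107 and 135. All of these 3 peaks lay at first start sites. Heat shock genes had 6 of 23 (26.1%, 12.5 to 46.5%), all with the strongest peak at a first start site, and 4 of the 23 have several units. After Hsp27 came Hsp26 with 349 and 383 and Hsp83, the fly Hsp90 gene, with 170 and 180.

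**Figure D3:**
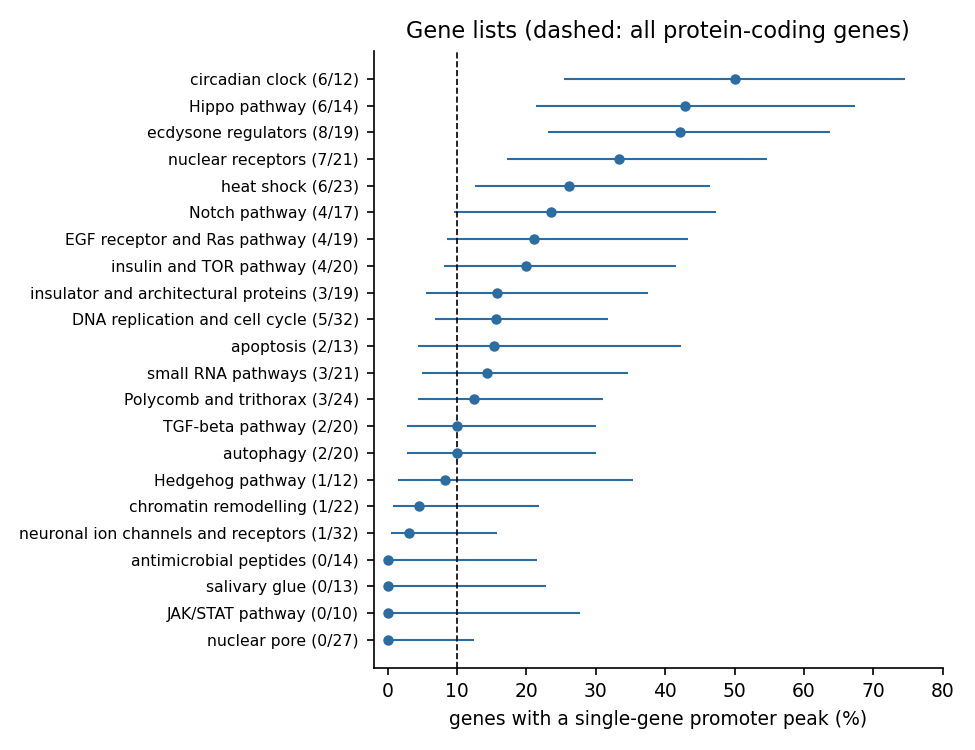
Percent of the genes of each list with a single-gene promoter peak (points) with Wilson 95% intervals (lines, counting error only), and the number of genes beside each name. The dashed line marks the 9.97% of all protein-coding genes, and the intervals of 5 lists, from the circadian clock to heat shock, lie above it.

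Intervals of the other signalling lists included the share of all genes. Notch pathway genes had 4 of 17 (23.5%): the Notch inhibitor gene numb had 485 and 485 in the replicates, the coactivator gene mam 320 and 330, and the ubiquitin ligase gene neur 144 and 198, all at alternative start sites. EGF receptor and Ras genes had 4 of 19 (21.1%), with 600 and 548 at spi, 398 and 362 at aos, the gene of the secreted inhibitor Argos, and 115 and 201.4 at the repressor gene aop. Insulin and TOR genes had 4 of 20 (20%), where after the shared Sesn peak Pi3K21B, a regulatory subunit of PI3 kinase, had 347 and 330 and the transcription factor gene foxo 129 and 151. TGF-beta genes had 2 of 20, shn and the inhibitory Smad gene Dad (66.6 and 57.5). Hedgehog genes had 1 of 12, ttv with 93.5 and 53.9, and JAK/STAT genes had 0 of 10 (upper Wilson limit 27.8%).

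Intervals of 7 lists of nuclear and cell biological genes also included the share of all genes. DNA replication and cell cycle genes had 5 of 32 (15.6%), led by the E2F partner gene Dp (353 and 442), followed by fzr (112 and 129) and E2f1 (113 and 83.9). Insulator and architectural protein genes had 3 of 19: Trl, which encodes the GAGA factor, had 297 and 289, BEAF-32 had 180 and 132, and CTCF had 32.1 and 65.6. Polycomb and trithorax genes had 3 of 24, where after ph-p its tandem copy ph-d had 128 and 131 and pho 68.7 and 82.7. The ph-p and ph-d genes are close copies, so reads may have been split between them. Chromatin remodelling genes had 1 of 22, osa with 39.8 and 55.2, and 6 more had only a divergent promoter peak. Autophagy genes had 2 of 20, Atg8a (137 and 142) and Atg16 (54.6 and 42.9), and 10 more had only a divergent promoter peak. Apoptosis genes had 2 of 13, the cell death gene hid (326 and 328) and the Bcl-2 family gene Debcl (59.1 and 64.0). Small RNA pathway genes had 3 of 21, vas (61.6 and 64.2), AGO1 (42.6 and 70.2) and loqs (42.2 and 56.1). Their merged signals, 104 to 122, were below the lower quartile of all peaks.

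Several lists had few or no such peaks. Neuronal ion channels and receptors had 1 of 32 (3.13%, 0.554 to 15.7%), Ih with 77.5 and 80.7, although 15 of these genes have several promoter units. No peak was found at 27 nuclear pore genes (upper Wilson limit 12.5%), of which 5 had a divergent promoter peak, nor at 14 antimicrobial peptide genes (21.5%) and 13 salivary glue genes (22.8%). The upper limits of these 3 lists exceed the share of all genes. CG10631 itself had no peak of the class: the gene (chr2L:19742817-19756904, minus strand) has 1 annotated start site, and the nearest IDR summit lay 7624 bp from it.

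Summits lay in AT-rich DNA. In windows reaching 100 bp to each side of the summit, GC content averaged 34.3% ± 7.13 (SD, 1623 windows), with 34.2% for the regions of replicate 2 and 34.6% for those of replicate 3. Windows at the same distances from single-gene promoters with no region of the merged list within 500 bp, called unbound below, had 40.04% ± 9.50 (8534 windows). The content was 32.9% for the summits farthest upstream and 33.3% for the 100 to 250 bp class, against 37.3% for summits 0 to 100 bp upstream and 37.1% for those downstream. In first start site peaks it fell from 39.3% at 300 bp before the summit to 31.2% at 40 bp before it, then rose to 46.2% at 300 bp after it, in 20-bp steps in the direction of the gene. Alternative start site peaks started higher, at 41.9%, and reached 31.7% at the summit.

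Known promoter elements were searched as exact letters, in either orientation, up to 100 bp from the summits, and the windows compared differ in GC content as given above. The TATA box TATAAA was found at 39.1% of peaks (36.7 to 41.5%), 28.2% of unbound promoters and 29.0% of all single-gene promoters, in windows at the same distances. The regions of replicates 2 and 3 gave 38.9% and 38.1%. Divergent promoter peaks had 49.2%, and peaks away from protein-coding start sites 39.5%. TATAAA was most frequent at the summit, in 14.6% of windows in the 50 bp before it, and was in 5.05% in the 50-bp interval starting 200 bp after it. Its share was 41.4% for the summits farthest upstream and 41.9% for the 100 to 250 bp class. Summits 0 to 100 bp upstream had 34.7% and downstream ones 30.9%. Windows of summits over 100 bp upstream end before the start site, so a match there need not be a TATA box in use. The A tract AAAAAAAA was found at 16.7% against 10.8% of unbound and 11.3% of all such promoters, and the Pho core GCCAT at 22.0% against 31.3% and 30.6%. The initiator core TCAGT (33.9% against 31.3% of unbound promoters) and the GAGA element GAGAG (22.6% against 21.5%) had closer shares, as did the nuclear receptor half-site AGGTCA (4.87% against 5.21%), the E-boxes CAGCTG (7.95% against 8.17%) and CACGTG (2.03% against 2.40%) and the CA repeat CACACACA (3.14% against 3.54%). CAGCTG was above the unbound promoters, at 8.27%, in the regions of replicate 3. Against all single-gene promoters the order was the reverse for GAGAG (24.2% of these promoters) and AGGTCA (4.49%). The GATA site AGATAA was found at 15.96% against 12.7%.

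The shares of elements of broadly expressed genes differed with distance. Windows of summits 0 to 100 bp upstream reach the start site, and those of the farthest upstream summits do not. Unbound promoters were not split by distance, so whether they show the same difference was not tested. The DREF element TATCGATA, bound by the replication-related factor DREF, was found at 53 peaks (3.27%, 2.51 to 4.25%), at 1.59% of unbound and 1.81% of all single-gene promoters. Its share was 14.4% in summits 0 to 100 bp upstream and 0.696% in those farthest upstream, at 250 to 500 bp, and 4.67% at first against 0.543% at alternative start sites. Divergent promoter peaks had 9.22%. The share was 6.03% with promoter windows of 250 bp, 1.98% with 1000 bp and 2.04% among the 4199 strongest entries, so it depends on which peaks are counted. The Ohler motif 7 core CATCNCTA had 4.37%, with 1.29% at unbound and 1.69% at all promoters, and 6.78% with 250-bp windows. It too was more frequent in summits 0 to 100 bp upstream (10.4%). The BEAF-32 core CGATA, which is contained in the DREF element, was found at 51.0% of summits in that class and 28.3% of all peaks, against 24.8% of unbound and 25.9% of all promoters. Ohler motif 1, GGTCACACT, was found at 10 peaks (0.616% against 0.727% of unbound promoters). The regions of replicates 2 and 3 gave 0.7995% and 0.966%, and promoter windows of 250 bp 1.42%, so its direction against unbound promoters changes with these settings.

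Words were also ranked without naming a factor beforehand. On arms 2L, 2R and 3L, with 910 of the peaks, each 6-letter word in at least 5% of summit windows was ranked by its ratio to unbound promoters. The leading word ACAGTG was found in 15.7% of these peaks against 7.16%, and on 3R, X and 4, with 713 peaks, in 17.4% against 7.27%. The word ranked next, ACACTG, was found in 14.6% against 7.40% and in 15.0% against 7.42% on the other arms. The word CAGTGC was not picked by this ranking but was among the motifs chosen with earlier results of these data known. Its share was 14.1% of all peaks, 8.73% of unbound and 9.55% of all single-gene promoters. CAGTGC was found at 19.96% of peaks away from protein-coding start sites and at 12.03% of divergent promoter peaks.

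Words of 8 letters within 220 bp of the summit were ranked in the same way, a choice made after the 6-letter words had been seen. The leading word was CACAGTGG, whose complement reads CCACTGTG. It was found in 8.35% of the peaks on the arms used for the ranking against 1.11% of unbound promoters, and in 9.54% against 1.496% on the other arms. In all, 144 peaks held it (8.87%, 7.58 to 10.4%), with 8.49% of the regions of replicate 2 and 8.75% of those of replicate 3. Unbound promoters had 1.27% and all single-gene promoters 2.19%, while divergent promoter peaks had 3.48% and peaks away from protein-coding start sites 6.90%. The next words ACAGTGGG and CACTGTGC are the same run of letters shifted by a base. Over its 166 copies the preceding letter was G in 74.7% and the following one G in 51.8%, which gives GCACAGTGGG.

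The word was unevenly spread over the class. It was found at 12.1% of alternative start site peaks (9.67 to 15.1%) and 7.19% of first ones (5.79 to 8.89%). By distance the share was 10.4% at 250 to 500 bp upstream, 9.66% at 100 to 250 bp, 3.47% at 0 to 100 bp and 7.81% downstream. Among peaks in the ranks 1 to 1000 of the IDR list it was 13.7%, and among those ranked after 6000 it was 5.01%. Peaks with the word had a median merged signal of 238, those without it one of 202, with 126 against 108 in replicate 2 and 154 against 116 in replicate 3.

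Copies were more frequent beside the summit than under it, and lay beside it in the sequences printed for larp and spi. The nearest copy had a median distance of 92.5 bp from the summit (quartiles 66.5 and 143). Of the 144 nearest copies, 60.4% lay at 50 to 150 bp and 18.8% within 50 bp, a shorter stretch, so these shares are not densities. In the direction of the gene, 2.16% of peak windows held a copy 50 to 100 bp after the summit and 1.36% one at 100 to 50 bp before it, against 0.739% and 0.924% in the 50-bp intervals on either side of the summit. The replicates' own regions gave 2.21% and 1.99% at 50 to 100 bp after the summit, and 0.615% and 0.664% in the 50 bp before it. The GAGA repeat GAGAGA had a similar gap. It was found in 2.22% of windows in each 50-bp interval beside the summit, in 7.15% at 100 to 150 bp after it and in 5.67% at 150 to 100 bp before it. Unbound promoters stayed between 1.72% and 2.55%. Their windows have no summit, so this range does not show whether the gap is particular to peaks.

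**Figure D4:**
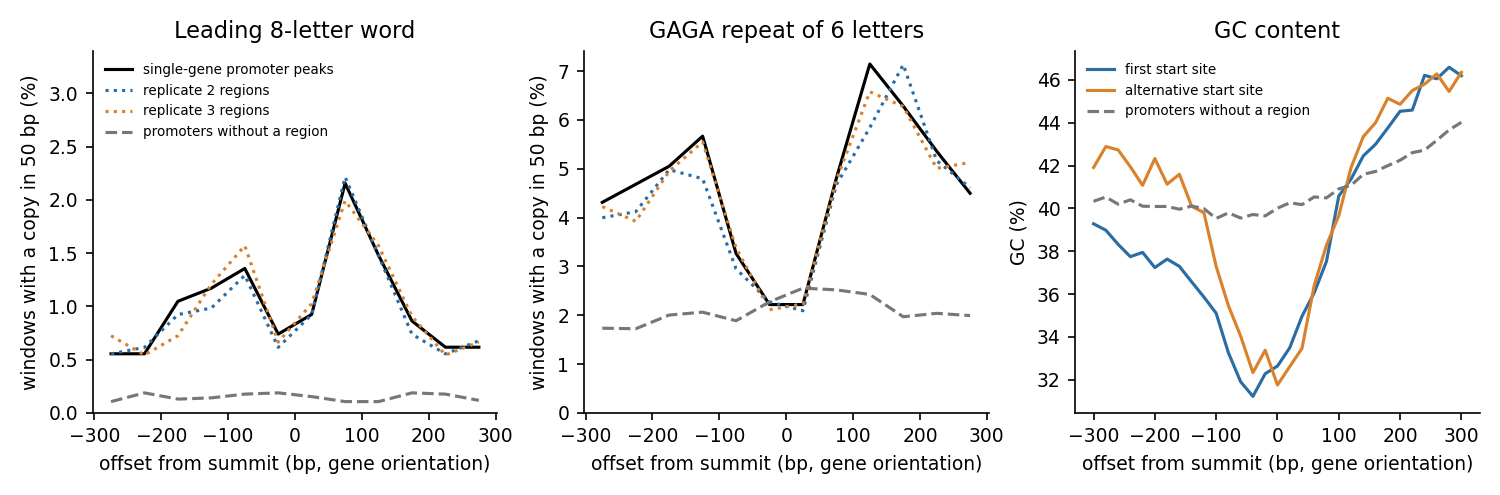
Percent of windows with a copy of the leading 8-letter word (left) and of the GAGA repeat (middle) in each 50-bp interval, and GC content in 20-bp steps (right), by offset from the summit in the direction of the gene in bp. Both words dip at the summit of single-gene promoter peaks and in each replicate's own regions, and GC content is lowest within 40 bp of the summit. Windows of unbound promoters (dashed) have no summit, so their profiles cannot show whether the dips are particular to peaks.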

How the data were processed

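ChIP-seq of CG10631-eGFP was analysed in 2 biological replicates of 1 group, from the dm6 peak lists. Which aligner and peak caller were used, with which filters and IDR cutoff, is not given in the sources used here. The signal of each region is the authors' deposited value in the caller's units, and the deposited −log10 q-value was carried along and used for no choice. The dm3 lists were not used. Each replicate list and the merged list hold 30000 regions. Read depth is unknown, so Wilson 95% intervals cover counting error only, and no test was made.

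Start sites came from the BDGP6.54 annotation (release 115) and sequence from RefSeq's copy of the same assembly. The summit is the start plus the deposited offset. A peak's replicate value is that of the strongest region overlapping it by at least 1 bp, so overlapping peaks can share 1 value. Single replicates were represented by their 8399 strongest regions. Unbound promoter windows took the peaks' distances in turn. Motifs (15) were searched as exact letters. Of the listed genes, 7 could not be matched and 6 matched by an older symbol. The membership rule and word search were tested on made-up data with known answers. Scripts ran in Python 3.11.15 with numpy 2.4.6, pandas 2.3.3, scipy 1.17.1 and matplotlib 3.10.9.

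The members, gene lists and motifs were chosen with earlier results of these data known. Genes were named as the 5 strongest peaks with a region in both replicates of each class, the 5 genes with the most peaks, the 5 with the strongest pair of first and alternative peaks, the 5 largest replicate differences, the 3 strongest of each list, and CG10631. Sequences came from the strongest peaks with the feature shown, restricted to windows without exons and to some of the arms.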

Additional observations from a re-analysis of the deposited data

How the results depend on the processing

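No paired analysis was possible because there is 1 group. With promoter windows of 250 bp the alternative share was 23.7%, the upstream share 85.6%, the median distance -127 bp, the median signal 213, and the shares with the DREF element, Ohler motif 7 core, CAGTGC and the 8-letter word 6.03%, 6.78%, 15.4% and 6.95%. With 1000 bp the alternative share was 33.0%, the upstream share 73.9%, the distance -196 bp, the DREF share 1.98% and the word share 9.14%. The 4199 strongest entries left 881 peaks at 810 genes, with 85.4% upstream at a median of -191 bp, a signal of 354, 33.5% GC, 2.04% with DREF, 10.7% with the word and 98.9% in both replicates' strongest regions. Keeping the strongest of overlapping entries gave -183 bp and a signal of 215. The alternative share was 37.2% when only the nearest start site counted and 55.2% among genes with several start sites. Sequence windows of 50 bp gave 32.9% GC, 23.8% with TATAAA, 1.54% with DREF, 1.97% with Ohler 7, 6.47% with CAGTGC and 1.54% with the word, and of 150 bp 36.0%, 48.2%, 4.68%, 6.47%, 19.7% and 6.84%. These shares rise with the length searched. A 50% reciprocal overlap gave 80.1%. Leaving out a replicate gave 1626 to 1657 peaks, 1385 to 1404 genes, 33.3 to 34.6% alternative, 83.4 to 84.3% upstream, -185 to -181 bp, 34.2 to 34.6% GC, and 38.1 to 38.9% with TATAAA, 3.26 to 3.32% with DREF, 3.51 to 4.95% with Ohler 7, 13.4 to 13.8% with CAGTGC and 8.49 to 8.75% with the word. Restricting start sites to protein-coding transcripts could change nothing, since it leaves the same 19607 start sites. Requiring no opposite-strand start site within 1000 bp left 1452 peaks and 1225 genes with a median signal of 207. Counts, shares and signals cannot change sign, and the median distance stayed negative in all settings. The direction against unbound promoters changed with the setting for Ohler motif 1 and CAGCTG, as given above. GAGAG also fell below unbound promoters, at 19.2%, with promoter windows of 250 bp. So did CGATA with windows of 1000 bp, at 24.4% against 24.8%. The cause of the other differences was not tested. The alternatives for the 8-letter word were chosen after seeing the data. The lists give no depth and no control, the replicates number 2, and a start site in the annotation need not be used in prepupae.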
